A study of Mus musculus with 8 samples.

Results

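The clustered protocadherin genes were taken as all protein-coding genes of mouse build mm10 whose symbol begins with Pcdha, Pcdhb or Pcdhg. The rule found 57 of the 21938 protein-coding genes on the nuclear chromosomes, with 14 in the Pcdha cluster, 22 in the Pcdhb cluster and 21 in the Pcdhg cluster. All 57 lay on the plus strand of chromosome 18. The annotation gives the symbol Pcdha11 to 2 neighbouring genes, and the first of these (ENSMUSG00000007440) lies where RefSeq places Pcdha10. It is written Pcdha11/Pcdha10 below. Pcdhgb8 is annotated as a polymorphic pseudogene and was therefore not a member.

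Clustered protocadherins are cadherin-like adhesion proteins of the cell surface, best known from neurons, where each cell expresses its own combination of them and uses it to tell its own processes from those of its neighbours. In the Pcdha and Pcdhg clusters every variable exon has a promoter of its own and is spliced to constant exons at the 3′ end of the cluster, whereas Pcdhb genes stand alone. Members fall into alternate isoforms, chosen at random in single neurons, and C-type isoforms, which neurons express more uniformly. The architectural protein CTCF binds promoters and variable exons of many alternate isoforms in neural cells and joins them through cohesin loops to distal enhancers. Outside the nervous system alternate promoters can be held silent by DNA methylation and repressive chromatin.

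The chromatin came from skeletal muscle nuclei of wild-type (WT) C57/Bl6J mice aged 10 to 12 weeks (10 weeks in the series' design text), and the labels name no treatment. Chromatin immunoprecipitation with sequencing was done once for each of 6 antibodies, against the glucocorticoid receptor (GR), RNA polymerase II (Pol2), CTCF, H3K4me3, H3K27ac and H3K4me1. CTCF and H3K4me3 shared one input library and the remaining 4 antibodies another, so that 8 libraries make up the study. Of the histone marks, H3K4me3 lies at promoters, H3K27ac at promoters and enhancers that are active, and H3K4me1 at enhancers and along the flanks of promoters. The sources used here give neither the muscles taken nor the number of animals. With 1 library per antibody there is no replicate error, so no comparison below carries a p value. The intervals cover the counting of genes only, and genes of a cluster are not independent. The sources used here do not give library depth, so a missing peak means only that none was called. In a whole tissue, fewer cells of a type and less signal per cell cannot be told apart.

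Most clustered protocadherin promoters carried no peak of any kind in muscle, and 13 of the 15 with H3K4me3 lay in the Pcdhg cluster. A peak was counted at a gene when it shared at least 1 base with the 1 kb to each side of the transcription start site (TSS), taken as the 5′ end of the gene record. No peak of any list lay there at 40 of the 57 members, against 33.7% of all protein-coding genes, and the other 17 had at least 1, against 66.3%. H3K4me3 was found at 15 members (26.3%, exact Clopper-Pearson 95% interval 15.5 to 39.7%), against 57.7% of all protein-coding genes. H3K4me1 was found at 5 members against 60.4% of all genes. GR was found at 1 member against 39.7% of all genes, Pol2 at 1 against 43.6%, and H3K27ac at 1 against 48.9%. CTCF was found at 1 member against 5.62% of all genes, a count too small to read against that background.

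**Figure D1:**
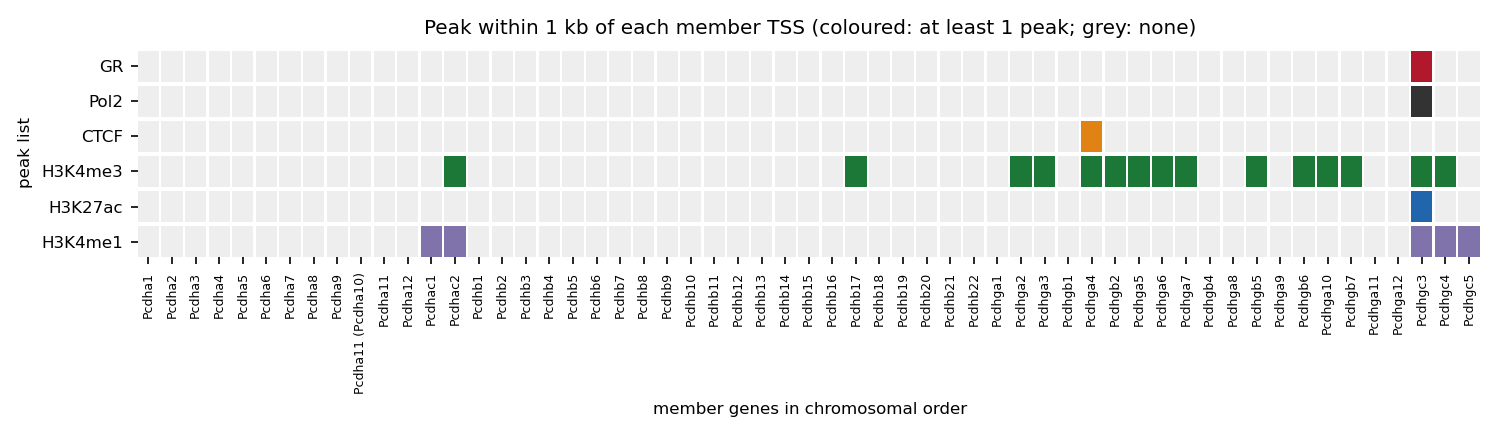
Each column is one of the 57 members in chromosomal order and each row is a peak list; a coloured cell marks at least 1 peak within 1 kb of the TSS and a grey cell marks none. Colour is nearly absent from the Pcdha and Pcdhb columns, H3K4me3 recurs along Pcdhg, and Pcdhgc3 is the member with peaks in 5 of the 6 lists.

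The 12 alternate Pcdha genes, from Pcdha1 to Pcdha12, had no peak in any of the 6 lists (0%, exact 95% interval 0 to 26.5%). Pcdha1, the first gene of the cluster, starts at 36930184 on chromosome 18. Its nearest H3K4me3 peak was 111629 bases away, its nearest CTCF peak 111632 bases, its nearest Pol2 peak 128232 bases and its nearest GR peak 128246 bases. All of these lay outside the cluster. At Pcdha12, which starts at 37020149, the nearest GR peak was 218211 bases away. The alternate Pcdha promoters thus sat inside a single stretch of 271.6 kb, from 36818556 to 37090123, that held no peak of any list and contained the TSS of 13 members. Stretches between neighbouring peaks had a median of 6.08 kb over the genome, and 1371 of the 81615 were longer than this one.

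The C-type genes of the Pcdha cluster differed from the alternate ones. Pcdhac2, which starts at 37143503, had an H3K4me3 peak of 554 bases from 37143550 to 37144103. Its fold over the control was 12.6 (fold, q and summit are the authors' own values for each peak, deposited for CTCF and H3K4me3 alone), higher than 39.7% of all H3K4me3 peaks. An H3K4me1 peak of 1476 bases, from 37143351 to 37144826, lay over it, and no H3K27ac, Pol2, GR or CTCF peak did. Pcdhac1, at 37090013, had an H3K4me1 peak of 506 bases whose nearest edge was 111 bases from the TSS, and no other peak. The nearest H3K27ac peak was 287807 bases from Pcdhac1 and 341297 bases from Pcdhac2, so neither marked gene had this mark or Pol2 anywhere near. One further H3K4me1 peak of 300 bases, from 37178403 to 37178702, lay in the shared 3′ part of the cluster at the 5′ end of the non-coding gene Gm10544 and overlapped no protein-coding exon.

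The Pcdhb cluster was nearly empty as well. Pcdhb genes have no constant exons, and 21 of the 22 had no peak of any list. Pcdhb17 was the exception, with an H3K4me3 peak of 334 bases from 37484931 to 37485264. Its fold was 5.19, higher than 11.8% of all H3K4me3 peaks, and its summit lay 233 bases downstream of the TSS. Pcdhb1, the first gene, had its nearest H3K4me3 peak 120835 bases away, and Pcdhb22, the last, 32607 bases away. Pcdhb1 to Pcdhb17 had their TSS within 1 peak-free stretch of 306.2 kb, from 37178703 to 37484930. Pcdhb18 to Pcdhb22 lay in another, of 157.4 kb. Over the whole span of the Pcdhb cluster, 259.5 kb, the H3K4me3 peak of Pcdhb17 was the single peak of the 6 lists.

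**Figure D2:**
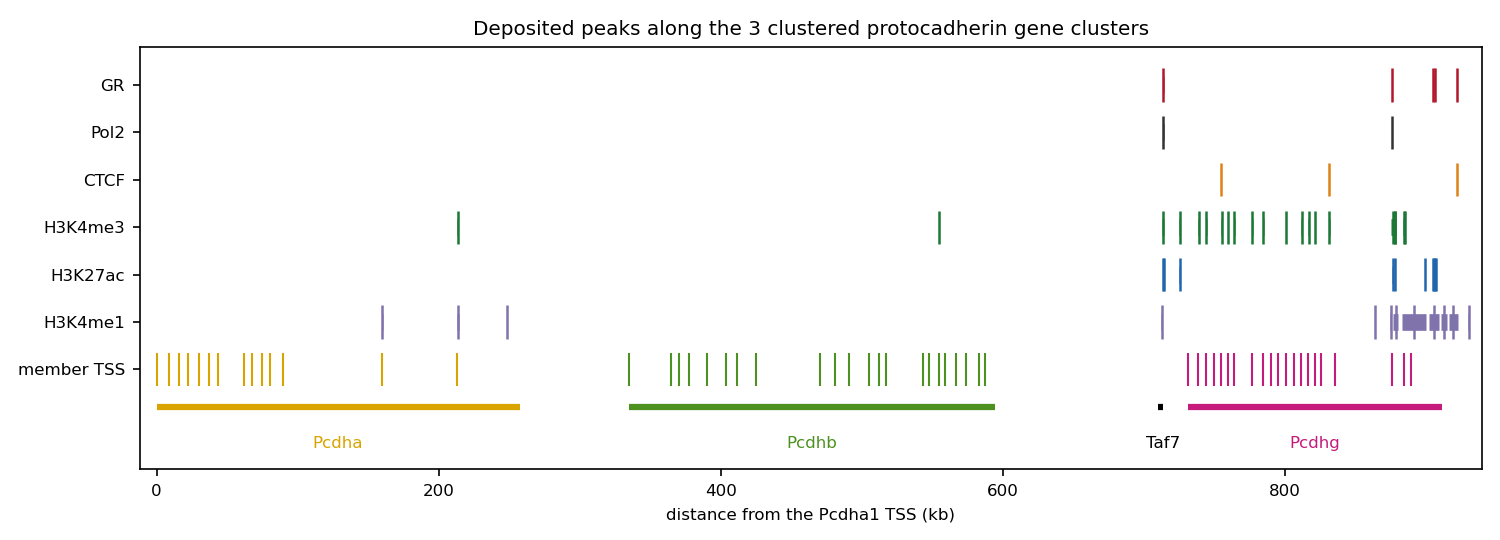
The x axis gives the distance in kb from the TSS of Pcdha1, each row shows the peaks of a list as ticks and bars to scale, and the lowest rows show the member TSS, the extent of each cluster and Taf7. Pcdha and Pcdhb hold 4 and 1 peaks, and the peaks gather at Taf7 and in Pcdhg.

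The alternate Pcdhg genes carried H3K4me3 in a share near that of all protein-coding genes (57.7%), and almost no other mark. H3K4me3 was present at 7 of the 12 Pcdhga genes and at 4 of the 6 Pcdhgb genes, together 11 of 18 (61.1%, exact 95% interval 35.8 to 82.7%). The marked genes were Pcdhga2, Pcdhga3, Pcdhga4, Pcdhgb2, Pcdhga5, Pcdhga6, Pcdhga7, Pcdhgb5, Pcdhgb6, Pcdhga10 and Pcdhgb7. The unmarked ones were Pcdhga1, Pcdhgb1, Pcdhgb4, Pcdhga8, Pcdhga9, Pcdhga11 and Pcdhga12, with their nearest H3K4me3 peak between 3455 bases (Pcdhga12) and 5648 bases (Pcdhga1) away. Marked genes lay along the cluster in runs of up to 5 neighbours, the longest from Pcdhga4 to Pcdhga7, with unmarked genes between the runs. None of the 18 had a GR, Pol2, H3K27ac or H3K4me1 peak within 1 kb of the TSS, a count of 0 for which the exact 95% interval reaches 18.5%.

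The H3K4me3 peaks of the alternate Pcdhg genes were weak and narrow, with summits just downstream of the TSS. The deposited fold ran from 4.91 at Pcdhga2 to 10.2 at Pcdhgb7, with a median of 7.54 over the 11 genes. Over all 12654 protein-coding genes with H3K4me3, taking the strongest peak of each, the median fold was 33.5 and the lower quartile 19.6. Among Pcdhga genes the fold was 8.74 at Pcdhga10, 8.38 at Pcdhga6, 7.96 at Pcdhga5, 7.41 at Pcdhga4, 6.78 at Pcdhga3 and 5.61 at Pcdhga7. Among Pcdhgb genes it was 9.81 at Pcdhgb2, 7.54 at Pcdhgb6 and 6.71 at Pcdhgb5. The folds of the Pcdhga and Pcdhgb genes overlapped. Their −log10 q lay between 5.69 and 17.8, and their width between 269 bases (Pcdhgb5) and 612 bases (Pcdhga7), with a median of 420 bases against 1308 bases over all genes with H3K4me3. All 11 summits lay downstream of the TSS, between 62 bases (Pcdhga5) and 360 bases (Pcdhga3), as did 85.5% of the summits of all genes with H3K4me3.

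**Figure D3:**
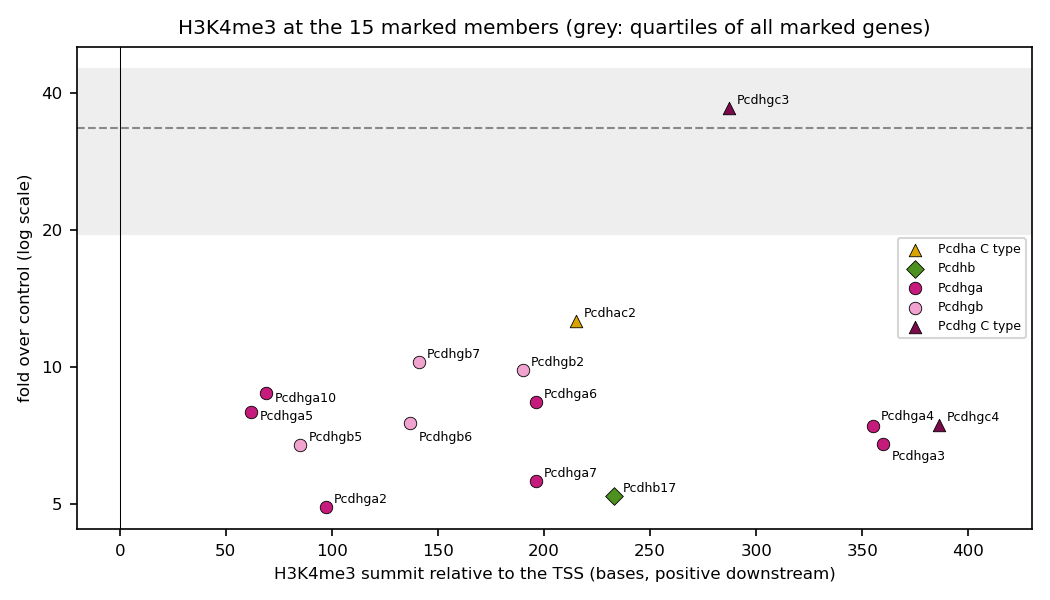
Each point is one of the 15 members with H3K4me3, placed by the distance of the peak summit from the TSS in bases (x axis) and by the deposited fold over the control (y axis, log scale); the grey band and dashed line give the quartiles and the median of all genes with H3K4me3. Pcdhgc3, at 37.0, is the one member inside the band, and the other members lie between 4.91 and 12.6.

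Clustered protocadherin promoters with H3K4me3 mostly lacked the marks that accompany it elsewhere. H3K4me3 was the only mark at 11 of the 15 marked members, 10 of them alternate Pcdhg genes and the other Pcdhb17. These peaks are among the weaker ones deposited: with the upper 50% of each list, H3K4me3 remained at 1 member, Pcdhgc3, and was the only mark at 0. Over all genes with H3K4me3 the share with no other mark was 1.45%. The members made up 11 of the 184 such genes in the genome (5.98%). H3K27ac accompanied H3K4me3 at 1 marked member against 83.7% of all genes with H3K4me3, Pol2 at 1 against 75.2%, GR at 1 against 68.0%, and H3K4me1 at 3 against 90.3%. CTCF accompanied it at 1 marked member against 9.11%.

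Weak H3K4me3 goes with fewer other marks in these libraries, so the members were also set beside genes of like fold, a comparison added after the data were seen. In the range of fold spanned by the alternate Pcdhg genes, from 4.91 to 10.2, there were 13 members and 1251 other genes. H3K4me1 was present at 1 of the 13 members, Pcdhgc4, against 89.0% of the other genes. H3K27ac was present at 0 of 13 against 26.7%, Pol2 at 0 against 15.1%, and GR at 0 against 12.0%. H3K4me3 stood alone at 11 of the 13 (84.6%) and at 80 of the other 1251 genes (6.39%). H3K4me3 and CTCF had an input of their own, so that antibody and input cannot be told apart here.

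**Figure D4:**
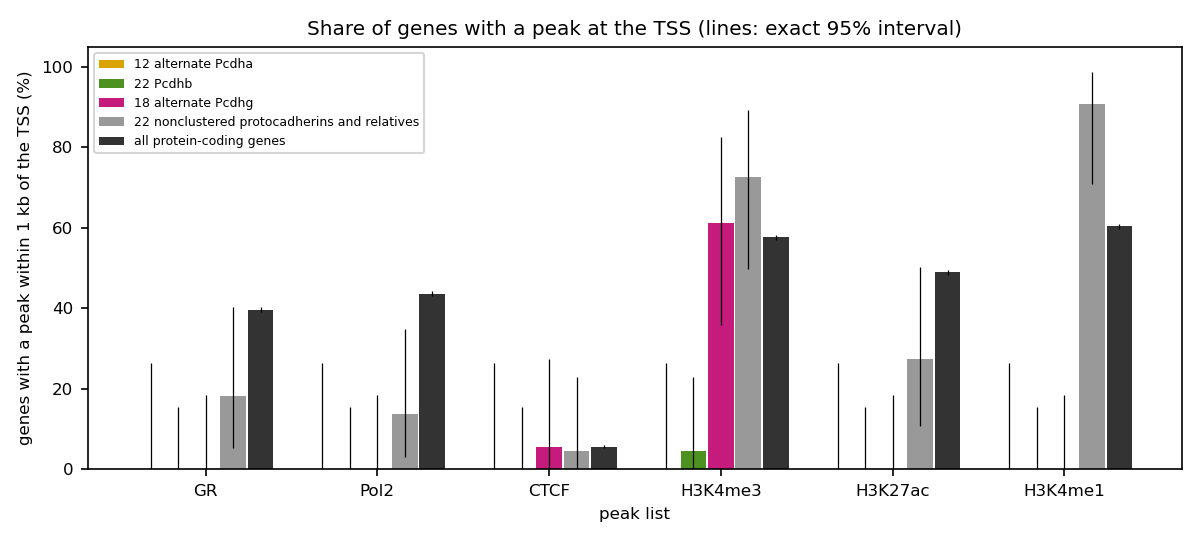
Bars give the percentage of genes with a peak within 1 kb of the TSS (y axis) for each list (x axis) in the alternate Pcdha, Pcdhb and alternate Pcdhg genes, in 22 nonclustered protocadherins and relatives, and in all protein-coding genes; lines are exact 95% intervals. Alternate Pcdhg genes reach 61.1% for H3K4me3 and 0% for GR, Pol2, H3K27ac and H3K4me1.

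Pcdhgc3 was the one member with peaks of 5 of the 6 lists at its TSS. This C-type gene, from 37806364 to 37841873, had an H3K4me3 peak of 1978 bases with a fold of 37.0 and a −log10 q of 101, wider than 90.5% of H3K4me3 peaks. A Pol2 peak of 149 bases, from 37806374 to 37806522, began 10 bases downstream of the TSS. It was wider than 23.9% of Pol2 peaks, and with the upper 50% of each list no member had Pol2. An H3K27ac peak of 992 bases began 46 bases downstream, and a GR peak of 240 bases, from 37806193 to 37806432, lay across the TSS. H3K4me1 peaks of 777 and 3459 bases flanked it on each side. No CTCF peak lay within 44603 bases. The antisense gene BC037039 runs across this promoter from its own start at 37807922. Within 1 kb of that start lay H3K4me3, H3K27ac and H3K4me1 peaks but no Pol2, GR or CTCF peak. Peaks carry no strand, so signal that lies over both genes cannot be divided between them.

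The other C-type genes of the Pcdhg cluster carried fewer marks. Pcdhgc4, at 37815079, had H3K4me3 peaks of 311 bases (fold 4.06) and 804 bases (fold 7.45) and lay within an H3K4me1 peak of 16746 bases. That peak, from 37813434 to 37830179, was wider than 98.9% of all H3K4me1 peaks. Pcdhgc5, at 37819513, lay within the same H3K4me1 peak and had no other peak within 1 kb of its TSS. Pcdhgc3, Pcdhgc4, Pcdhgc5, Pcdhac1 and Pcdhac2 were the 5 members with H3K4me1, so that all 5 C-type genes had this mark and none of the 52 others did. Over all protein-coding genes the share was 60.4%. With peak midpoints only 3 members had H3K4me1, against 37.7% of all genes. With the upper 50% of the list 4 members had it, against 41.4%.

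**Figure D5:**
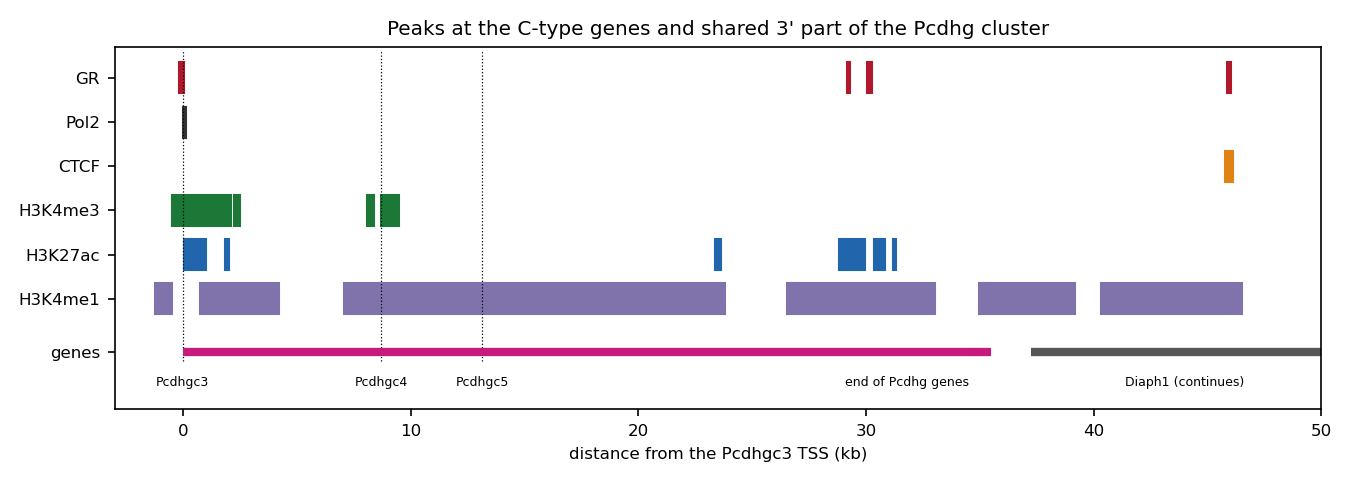
The x axis gives the distance in kb from the TSS of Pcdhgc3, and blocks show the peaks of each list to scale (the narrowest at a minimum width) with dotted lines at the 3 C-type TSS and the Pcdhg and Diaph1 genes below. H3K4me1 covers most of the interval, and 2 GR peaks lie among H3K27ac peaks downstream of Pcdhgc5.

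Over the 3 cluster spans together, the lists differed in how their coverage stood to that of the nuclear genome. H3K4me3 peaks covered 1.46% of the spans against 0.763% of the genome, and CTCF peaks 0.0605% against 0.0567%. The spans hold 57 member TSS in 697.1 kb, and the genome 21938 protein-coding TSS in 2726000 kb. Coverage was not adjusted for this density. Counted by TSS, H3K4me3 was at 26.3% of members against 57.7% of all genes. The CTCF coverage came from 2 peaks and was 0% with the upper 50% of the list. Coverage was below the genome's for GR (0.0849% against 0.216%), Pol2 (0.0214% against 0.226%), H3K27ac (0.438% against 0.850%) and H3K4me1 (4.38% against 6.67%). The H3K4me3 coverage came mostly from Pcdhg, where it was 5.16%, against 0.215% in Pcdha and 0.129% in Pcdhb.

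The 3′ part of the Pcdhg cluster held most of the bases under H3K27ac, H3K4me1 and GR peaks in the 3 clusters. This part holds the C-type promoters as well as the constant exons that all Pcdhg transcripts share. From 1 kb before Pcdhgc3 to the end of the cluster, 36.5 kb, H3K4me1 peaks covered 76.1% of the bases, against 6.67% of the nuclear genome. H3K27ac peaks covered 8.37% there against 0.850% of the genome, and H3K4me3 peaks 10.6% against 0.763%. GR peaks covered 1.62% against 0.216%. All H3K4me3 peaks of this part lay nearest to the TSS of Pcdhgc3 or Pcdhgc4, so their coverage is not that of the constant exons. In the 143.6 kb upstream of it, which holds the alternate Pcdhg promoters, H3K27ac, GR and Pol2 had no peak and H3K4me1 covered 0.353%.

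GR occupancy in the clusters came to 3 peaks, all in this 3′ part. Besides the one at Pcdhgc3, a GR peak of 128 bases, from 37835546 to 37835673, lay inside an H3K27ac peak of 800 bases. Another of 224 bases, from 37836410 to 37836633, lay between that H3K27ac peak and the next. Both lay within an H3K4me1 peak of 6512 bases, outside every protein-coding exon, with their middles 16096 and 17008 bases downstream of the Pcdhgc5 TSS. A further GR peak of 175 bases, from 37852220 to 37852394, lay outside the cluster in an intron of Diaph1, which encodes an actin-nucleating formin. It sat within a CTCF peak of 320 bases whose fold of 12.3 was higher than 87.4% of all CTCF peaks.

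The Pcdha and Pcdhb clusters held no CTCF peak and the Pcdhg cluster held 2. That is 1.11 per 100 kb against 0.239 per 100 kb of the nuclear genome, and 2 peaks are too few to read against it. One, of 185 bases from 37685067 to 37685251, covered the TSS of Pcdhga4. Its fold of 4.44 was higher than only 1.18% of the 6526 CTCF peaks. The other, of 237 bases from 37761525 to 37761761, ended just upstream of Pcdhgb8 and had a fold of 7.32, higher than 47.3% of CTCF peaks. An H3K4me3 peak with a fold of 4.56 overlapped it, so Pcdhgb8, though not a member, had both marks as Pcdhga4 did. With the upper 50% of the list, CTCF peaks covered 0% of the cluster spans.

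The absence of CTCF peaks from the alternate Pcdha genes stood beside sequences that match the CTCF core consensus. That consensus has 12 bases with degenerate positions and was searched on both strands, with matches allowed to differ at 1 position. It matched within 1 kb of the TSS at 13 members (22.8%), against 20.6% of all protein-coding genes. The matches were concentrated in the alternate Pcdha genes, with 9 of 12, against 1 of 22 Pcdhb genes, 2 of 18 alternate Pcdhg genes and, among C-type genes, Pcdhac1. Matches without any mismatch were found at 6 members, all alternate Pcdha genes (Pcdha1, Pcdha4, Pcdha6, Pcdha7, Pcdha8 and Pcdha12), against 1.72% of all genes. All 6 were in the direction of transcription, as were 59.4% of such matches over all genes, with their middle between 543 and 587 bases downstream of the TSS. A CTCF peak lay within 1 kb of the TSS at 0 of these 6 genes and at 37.1% of the 377 genes with such a match. The 377 include these 6, and 6 genes are too few to read against that share. A match describes these letters and not a binding site. Of the 3 CTCF peaks in and next to the Pcdhg cluster, the one in Diaph1 held a match and the other 2 did not. Over all 6526 CTCF peaks, 63.0% held a match, and 3 peaks are too few to read against that share.

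The unmarked alternate Pcdha promoters had a CpG ratio at which most other genes carried H3K4me3. This ratio, the number of CpG dinucleotides over that given by the base composition within 500 bases of the TSS, lay between 0.569 and 0.749 at the 12 alternate Pcdha genes. Of the 4607 other genes in that range, 89.7% had H3K4me3, although their median GC content was 58.3% against 45.1% at the alternate Pcdha genes. The CpG ratio was lower at Pcdhb genes, with a median of 0.378, and 28.1% of other genes in the Pcdhb range had H3K4me3 against 1 of 22 Pcdhb genes. Alternate Pcdhg genes with H3K4me3 had a median CpG ratio of 0.594 (0.479 to 0.740) and those without it 0.564 (0.318 to 0.864), so the groups overlapped. Of the 11690 other genes in the alternate Pcdhg range, 80.5% had H3K4me3, against 11 of 18 alternate Pcdhg genes (61.1%). The median GC content of those other genes was 57.6%, against 46.5% at the alternate Pcdhg genes.

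Clustered protocadherin genes resemble each other in sequence, and reads from repeated stretches cannot be placed with certainty. Within 1 kb of the TSS, the share of 32-base words that occur once in the genome lay between 73.7% (Pcdha7) and 92.6% (Pcdha9) at alternate Pcdha genes, against a median of 98.5% over all genes. It lay between 78.6% (Pcdhb9) and 100% at Pcdhb genes, with a median of 99.6%, and its median was 97.7% at marked and 97.1% at unmarked alternate Pcdhg genes. Pcdhgb4, with 81.3%, was unmarked and Pcdhgb5, with 88.5%, was marked. The part of read placement in the missing peaks was not tested.

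Most protein-coding genes next to the clusters had peaks of several lists at the TSS, and Diaph1 was the one with all 6. Upstream, Zmat2, Hars2 and Hars each had H3K4me3, H3K27ac, H3K4me1, Pol2 and GR at the TSS, and Zmat2 ended 130518 bases before Pcdha1. Taf7, a subunit gene of the general factor TFIID, lies between Pcdhb and Pcdhg and had the same marks, with an H3K4me3 fold of 40.5. Its neighbour Slc25a2, a mitochondrial ornithine carrier gene, had none. Downstream, Diaph1 had an H3K4me3 fold of 42.2 and a CTCF fold of 12.2 at its TSS, and Hdac3 and Rell2 had all but GR and CTCF. Hars and Hars2 start on opposite strands at 36783205 and 36783008, with the same H3K4me3 fold of 37.8. Hdac3 and Rell2 do so at 37955016 and 37955079, with the same fold of 31.0. The TSS windows of each pair overlap, so their marks were not counted independently. Gm42416, Gm37013 and Gm37388, read-through genes annotated from Pcdha into Pcdhg, had none at their own TSS.

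Other cadherin-family genes carried H3K4me3 and H3K4me1 in larger shares than the 57 members (26.3% and 8.77%), a difference that was not tested. In the Pcdhg cluster H3K4me3 was at 13 of 21 genes (61.9%), above the classical cadherins (47.4%) and below the nonclustered protocadherins (72.7%). H3K4me1 was at 3 of those 21. All protein-coding genes had H3K4me3 at 57.7%, H3K4me1 at 60.4%, H3K27ac at 48.9%, Pol2 at 43.6% and GR at 39.7%. Of 22 nonclustered protocadherins and large relatives, 16 had H3K4me3 (72.7%), 20 had H3K4me1 (90.9%), 6 had H3K27ac, 4 had GR and 3 had Pol2. Pcdh7 and Pcdh19 had GR, Pol2, H3K27ac, H3K4me3 and H3K4me1, whereas Pcdh8, Pcdh9 and Pcdh10 had H3K4me3 with H3K4me1 and nothing else. Of 19 classical cadherins, 9 had H3K4me3, 12 had H3K4me1, 4 had H3K27ac, 2 had GR and 1 had Pol2, the last being Cdh15, the M-cadherin of muscle precursor cells. Other tandem families lay on both sides: of 39 Hox genes 30 had H3K4me3 and 23 had H3K27ac, of 1135 olfactory receptor genes 1 had H3K4me3 and 1 had GR, and of 9 Ugt1a genes none had a peak.

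Most genes for the proteins that organise or silence the clusters carried H3K4me3, H3K27ac and Pol2. Of 26 such genes, 21 had H3K4me3 at the 5′ end of the gene record, 19 had H3K27ac, 18 had Pol2 and 18 had GR. Over all protein-coding genes the shares at that end were 57.7% for H3K4me3, 48.9% for H3K27ac, 43.6% for Pol2 and 39.7% for GR. When every protein-coding transcript start was used, the numbers for the 26 genes were 26, 24, 22 and 22. Over all protein-coding genes the shares counted in that way were 60.7% for H3K4me3, 51.6% for H3K27ac, 46.4% for Pol2 and 42.4% for GR. Ctcf, Stag2, a cohesin subunit gene, and Pds5a, a cohesin regulator gene, had all 6 marks. Smchd1, a chromatin silencer of the clusters, and Wiz had all but CTCF, and Setdb1, a histone H3K9 methyltransferase gene, had GR and H3K4me3. Of 24 genes for signalling and processing partners of protocadherins, 21 had H3K4me3, 18 had H3K27ac, 17 had Pol2 and 13 had GR. These counts too were taken at the 5′ end of the gene record. Among them Ptk2, encoding focal adhesion kinase, Fyn and Adam10, a protease that sheds protocadherins, had all but CTCF, and Ptk2b had H3K4me3 and H3K4me1 alone.

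Markers of cell types differed in the same lists, and which of these types gave nuclei to the chromatin was not tested. Of 8 myofibre markers, 6 had Pol2 and 6 had H3K27ac at the 5′ end of the gene record, and all 8 had both at some protein-coding transcript start. Of 10 neuron markers, none had Pol2 or H3K27ac, 3 had H3K4me3 and 8 had H3K4me1. Pol2 was at 2 of 10 Schwann cell markers, 3 of 10 endothelial markers, 6 of 9 fibro-adipogenic markers, 3 of 7 satellite cell markers and 1 of 8 immune markers. In the same order H3K4me3 was at 6, 8, 7, 5 and 0 of them, and it was at 6 of the 8 myofibre markers. Over all protein-coding genes the shares were 43.6% for Pol2, 48.9% for H3K27ac, 57.7% for H3K4me3 and 60.4% for H3K4me1. At any protein-coding transcript start they were 46.4% for Pol2 and 51.6% for H3K27ac. The part of any of these cell types in the H3K4me3 peaks of Pcdhg was not tested.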

How the data were processed

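Per the submitters' processing notes, the build was mm10 and the tools were MACS2 (no version), Bowtie 1.0.0 and bcl2fastq 2.17.1.14; their order, the peak threshold and any blacklist are not stated there. Per the labels, each library took 10 ng of DNA through 7 cycles of PCR. The authors deposited 6 peak lists without headers, holding 23188 GR, 20192 Pol2, 6526 CTCF, 19811 H3K4me3, 44151 H3K27ac and 75523 H3K4me1 peaks on the nuclear chromosomes. Mitochondrial peaks (8 GR, 7 H3K4me3, 5 CTCF and 1 Pol2) were left out. For CTCF and H3K4me3 the authors also deposited a score, a linear fold (ratio) over the control, a −log10 p-value and a −log10 q-value, and a summit. The column meanings were told from the values.

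Gene starts came from GENCODE M21 (GRCm38, the same build as mm10) and, as an alternative, RefSeq. Python 3.11.15, numpy 2.4.6, pandas 2.3.3, scipy 1.17.1 and numba 0.67.0 were used, and the overlap counting was tested on simulated peaks. Counts of genes carry exact Clopper-Pearson 95% intervals. All members were counted. Those named have a GR, Pol2, CTCF or H3K4me3 peak at the TSS, are C-type genes, or are first or last in a family, with the genes inside the clusters and the 3 nearest on each side. Other genes named were chosen after their values were seen. The members and gene lists were chosen with earlier results of these data known. Alternatives were windows of 500 bases, 2 kb and 5 kb, every transcript start, peak midpoints, the upper 50% of each list (by −log10 q or width) and RefSeq starts.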

Additional observations from a re-analysis of the deposited data

How the results depend on the processing

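Of 42 alternatives for the counts of members with a peak at the TSS, 37 stayed within 1.5 times the reported count. A window of 5 kb raised the CTCF count to 4 of 57, against 9.82% of all protein-coding genes. With peak midpoints the H3K4me1 count was 3, against 37.7% of all genes. With the upper 50% of each list, the Pol2 and CTCF counts were 0, against 28.7% and 3.92% of all genes. The H3K4me3 count there was 1 (Pcdhgc3, the strongest of the 15), against 43.7% of all genes. The members with H3K4me3 as the only mark were then 0, and the other H3K4me3 peaks of the members rank in the lower 50% by −log10 q. The count of 11 with H3K4me3 alone was 11 or 12 under the other alternatives, chosen after seeing the data. Peaks covered 0.0849% of the 3 cluster spans for GR, 0.0214% for Pol2, 0.0605% for CTCF, 1.46% for H3K4me3, 0.438% for H3K27ac and 4.38% for H3K4me1. In that order, the upper 50% of the lists covered 0.0666%, 0%, 0%, 0.284%, 0.327% and 4.12%. Spans from the first to the last TSS window, which leave out the constant exons, gave 0.0381% for GR, 0.0670% for CTCF, 1.61% for H3K4me3, 0.179% for H3K27ac and 2.10% for H3K4me1. The 13 members with a CTCF consensus match became 6 without mismatches and 0 within 250 bases of the TSS. No paired analysis was possible because each antibody has 1 library. Depth is not known, so weak peaks may have been missed in any list.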

Other observations

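Between the Pcdhb and Pcdhg clusters, 3222401L13Rik, a long intergenic non-coding RNA gene that ends just before Pcdhga1, had an H3K4me3 peak of 607 bases with a fold of 26.8 and an H3K27ac peak of 239 bases inside it. It had no Pol2, GR, CTCF or H3K4me1 peak within 1 kb of its TSS. Its H3K4me3 fold was thus above that of every member other than Pcdhgc3. The antisense genes Gm37751, Gm38225, Gm37753, Gm10545 and Gm38097 in Pcdha, Gm37446 in Pcdhb, and Gm37118 and Gm37165 in Pcdhg had no peak of any list within 1 kb of their own start. Gm29994, antisense in the 3′ part of Pcdhg, had 1 H3K27ac and 1 H3K4me1 peak there.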
